A study of Mus musculus with 53 samples.

Results

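RNA of tumours grown from mammary tumour cells with whole genome doubling (WGD+) was compared with RNA of tumours grown from cells of the same line without it (WGD-), in vehicle-treated mice of the strain labelled NSG. The comparison rests on 6 of the 53 libraries of the series, 3 WGD+ and 3 WGD-, taken by the host, form and treatment in the sample titles of the YM-155 experiment. Both groups were TA3 Hauschka tumours, from a murine mammary tumour line engineered in a WGD+ and a WGD- form. The cells were placed with 50% Matrigel into the inguinal mammary fat pad of female mice 6 weeks old, and vehicle was given for 14 days. The host is a NOD.Cg-Prkdcscid Il2rgtm1Wjl mouse with the transgene Tg(CMV-IL3,CSF2,KITLG)1Eav, of the substrain written MloySzJ. Its Prkdc and Il2rg mutations leave the host without mature T, B and NK cells, while myeloid and mast cells remain. Its transgenes give human IL3, GM-CSF (CSF2) and stem cell factor (KITLG). How the WGD+ form was made, and whether each form is 1 clone, is not given in the sources used here. In 12 libraries of the experiment the genotype field goes against the title, among them 3 of these 6, and the titles were followed.

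Whole genome doubling leaves a cell with a duplicated chromosome set, usually after a division that fails to separate the daughter cells. It is frequent in carcinomas of the breast and other organs. Doubled cells carry extra centrosomes and a heavier load of DNA to copy and segregate, they can set off p53 through the Hippo kinases, and they tend to lose chromosomes or parts of them in later divisions. The comparison asks what the doubled form of the tumour expressed differently in a host without lymphocytes and without treatment.

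Levels are given as deposited, as log2(CPM + 1), where CPM is the read count scaled to library size with the authors' TMM factors. A difference is the WGD+ mean minus the WGD- mean on that scale, so that 1 is close to a 2-fold change for well expressed genes, and changes of low genes are understated. The 6 libraries held 6.66 to 6.88 M assigned reads in WGD+ and 6.51 to 7.11 M in WGD- tumours, so that 1 read was worth 0.135 to 0.149 CPM. Over the 13826 genes tested, libraries of 1 form correlated at 0.980 to 0.990 with each other and at 0.969 to 0.979 with the other form, and none of the 6 stood apart. Among the other 18 libraries of the experiment, A/J WGD- vehicle replicates 1 and 2 stood apart, and they enter only the shared spread, the A/J vehicle comparison and the test of host dependence. Whether each replicate is a different mouse is not stated in the labels, so the p-values speak of the spread among these libraries only, and that spread may be technical. In bulk tumour RNA, fewer cells of a type and less RNA per cell cannot be told apart.

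In WGD+ tumours 124 genes were higher and 270 were lower than in WGD- tumours (limma, Benjamini-Hochberg adjusted p under 0.05 over all genes), which is 0.897% and 1.95% of the genes tested and 2.85% together. The falls were the larger changes. Of the 270 lower genes, 123 differed by at least 1, 27 by at least 2 and 6 by at least 3, and of the 124 higher genes 43 differed by at least 1 and 3 by at least 2. The median difference of all genes was 0.0053. At an unadjusted p under 0.05 were 2303 of the 13826 genes, and list counts at that level below are read against this. Protein-coding genes made up 375 of the 394. Groups without overlap were common over all genes, at 17.6% with every WGD+ library above every WGD- library and 18.6% with every WGD+ library below, so a gap between the groups alone is read here as a description.

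The spread behind these p-values was taken over all 24 libraries of the experiment, and the count moved with it. With only the 6 libraries in the fit 2462 genes passed, and leaving out 1 of the 6 lowered the count to 169, 107 or 156 (without WGD+ replicate 1, 2 or 3) and 132, 194 or 123 (without WGD- replicate 1, 2 or 3). In all 6 of these fits 76 of the 394 genes passed. The genes that differed also differed in base composition: the median transcript was 45.1% GC for the higher genes and 55.1% for the lower genes, against 50.1% for all genes tested. After a correction of each library for GC content 278 genes passed, 238 of them among the 394.

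**Figure D1:**
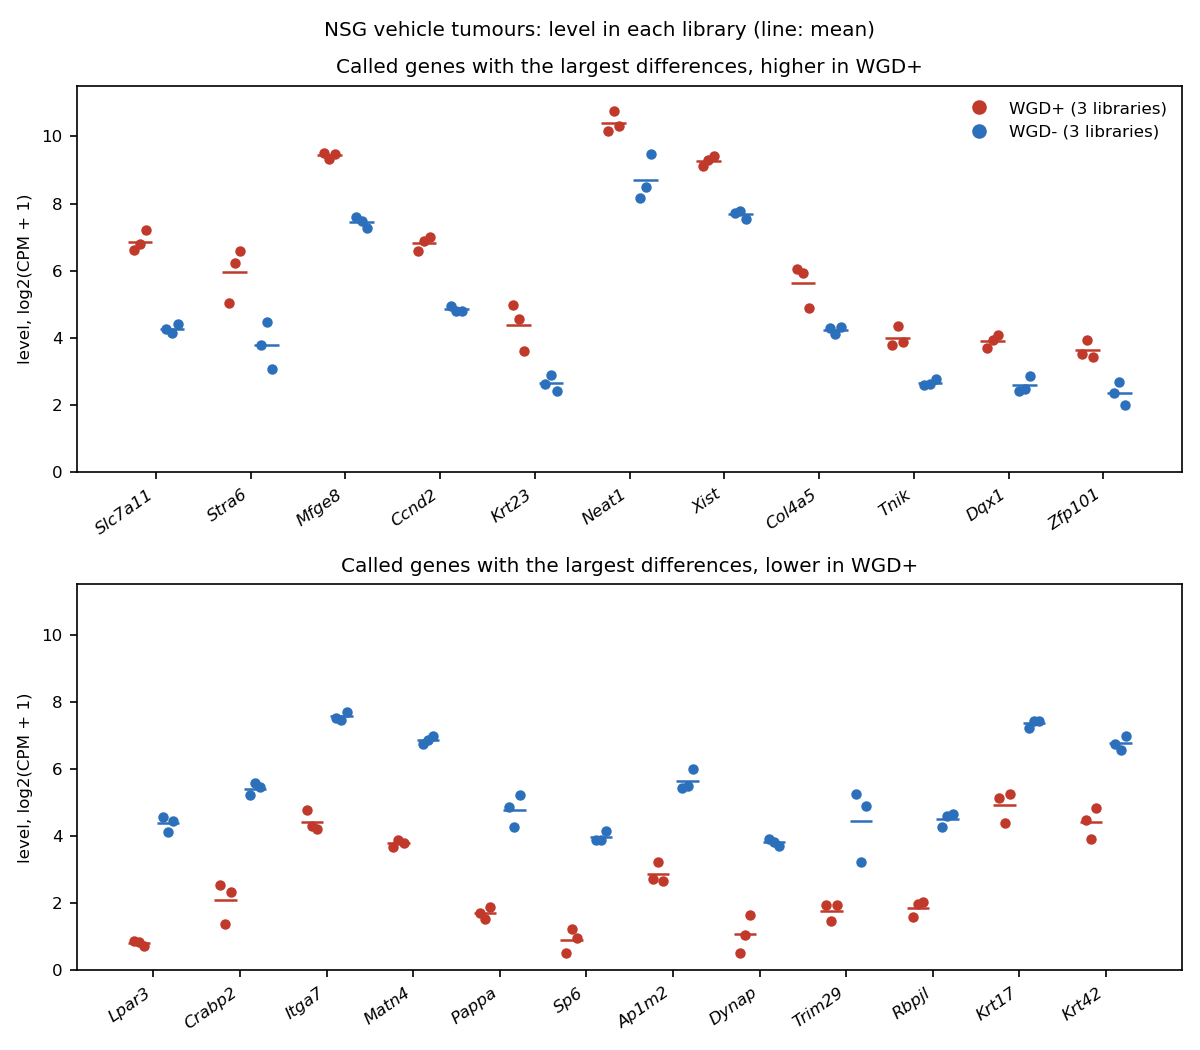
Level in log2(CPM + 1) of 11 higher and 12 lower genes among those with the largest called differences, in each of the 3 WGD+ (left of each pair, red) and 3 WGD- (right, blue) NSG vehicle libraries, with a line at the mean. The groups do not overlap for any of the 23 genes, which the choice of genes required, and Stra6, Neat1, Krt23 and Trim29 show the widest spread within a form.

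The amino acid genes include the gene with the largest rise. Slc7a11 encodes the transport chain of the exchanger that brings cystine into the cell in return for glutamate, and so feeds glutathione synthesis (chromosome 3, 49892526 to 50443614 in mm10, minus strand). Its level was 6.62, 6.78 and 7.20 in the WGD+ libraries, against 4.25, 4.16 and 4.43 in the WGD- libraries. The lowest WGD+ library lay well above the highest WGD- library. The rise was 2.59 (SE 0.27, limma adjusted p = 7.09e-06) and passed without each of the 6 libraries in turn, with the adjusted p at most 0.000171. In reads, the 3 WGD+ libraries together held 2579 and the 3 WGD- libraries 389.

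Slc7a11 is a textbook target of ATF4, the transcription factor of the amino acid and unfolded protein responses, which binds composite sites with CEBP proteins. The 250 bases before the RefSeq start of Slc7a11 (GRCm38.p6, chr3:50443614-50443863, minus strand, read 5′ to 3′) are printed because the gene leads the list and because they hold more than 1 match to the core of such a site. The letters TGATGNAA were searched on both strands (TTNCATCA on the other), and matches are in capitals.
Slc7a11: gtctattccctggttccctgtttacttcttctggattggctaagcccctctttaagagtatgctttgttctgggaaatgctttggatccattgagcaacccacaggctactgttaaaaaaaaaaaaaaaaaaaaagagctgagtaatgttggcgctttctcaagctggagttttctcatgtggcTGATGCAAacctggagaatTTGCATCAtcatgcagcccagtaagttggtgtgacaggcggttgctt
The matches lie 66 to 59 and 47 to 40 bases before the start, on opposite strands. Of 32851 RefSeq windows of this length 1134 (3.45%) held a match and 13 (0.0396%) held 2 or more. Among the 22 genes of the ATF4 list 20 had a window, 6 of them with a match, and Slc7a11 alone had 2. The stretches around the match in the other 5 genes, each with up to 20 bases on either side, follow from chr6:7693210-7693252 (Asns, minus), chr1:191183416-191183463 (Atf3, minus), chr2:119351029-119351076 (Chac1, plus), chr14:55540143-55540190 (Pck2, plus) and chr19:27216800-27216847 (Vldlr, plus).
Asns: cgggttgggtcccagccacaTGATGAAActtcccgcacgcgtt
Atf3: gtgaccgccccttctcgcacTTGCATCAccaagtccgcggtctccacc
Chac1: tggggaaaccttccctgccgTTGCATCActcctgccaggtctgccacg
Pck2: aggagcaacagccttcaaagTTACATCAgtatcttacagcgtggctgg
Vldlr: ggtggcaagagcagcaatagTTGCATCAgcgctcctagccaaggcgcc
Psat1, the other gene of the list that rose, held no match in either of its 2 windows. A match describes these letters and is no measured site.

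Of the 22 ATF4 and amino acid response genes tested, 2 rose (Slc7a11 and Psat1) and none fell, with a median difference of 0.27. Their differences were above 0 in 18 of the 22, and 10 had every WGD+ library above every WGD- library. Over all genes 17.6% had that gap. Psat1, an enzyme of serine synthesis, was at 7.59, 7.55 and 7.26 in WGD+ tumours, against 6.99, 6.70 and 6.93 in WGD- tumours, without overlap. It rose by 0.60 (SE 0.16, limma adjusted p = 0.0368), and this call was kept in only 1 of the 6 fits that leave out a library (without WGD+ replicate 3). The other enzymes of serine and asparagine synthesis did not pass: Phgdh differed by 0.38, Psph by 0.0024, Asns by 0.37 and the mitochondrial folate enzyme Mthfd2 by 0.55 (adjusted p = 0.129 for Mthfd2). With only the 6 libraries in the fit 10 of the 22 passed, all higher, against 1102 higher genes of all 13826.

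Among 18 amino acid transporter genes tested, 2 rose and none fell (median 0.17). They were Slc7a11 and Slc38a3, a sodium-coupled glutamine transporter, which was at 5.82, 6.33 and 6.23 in WGD+ tumours, against 5.43, 5.14 and 5.49 in WGD- tumours. The groups were apart by a small gap. The rise was 0.77 (SE 0.20, adjusted p = 0.0304) and was kept in 1 of the 6 leave-out fits (without WGD+ replicate 1). Slc1a4, an alanine, serine and cysteine transporter, was 0.87 higher at its mean and missed the threshold (adjusted p = 0.0893). Of 22 targets of NRF2, the oxidative stress factor, Slc7a11 rose and Tkt fell, with a median of 0.08, or 0.02 without WGD- replicate 2. Tkt, transketolase of the pentose phosphate pathway, was at 7.78, 7.81 and 7.51 in WGD+ tumours, against 8.32, 8.20 and 8.46 in WGD- tumours, and fell by 0.63 (SE 0.14, adjusted p = 0.0127). Its call was lost without WGD- replicate 1 or 3 or WGD+ replicate 3 (adjusted p up to 0.0922).

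Mfge8 had the smallest p of all genes. It encodes a secreted glycoprotein that bridges phosphatidylserine on dying cells to integrins of phagocytes, and it is abundant in mammary epithelium and milk fat (chromosome 7, 79133768 to 79149060, minus strand). Its level was 9.51, 9.34 and 9.47 in WGD+ tumours, against 7.6, 7.48 and 7.26 in WGD- tumours. Both groups were tight and far apart. The rise was 1.99 (SE 0.17, adjusted p = 4.43e-07) and passed in all 6 leave-out fits. It was the only one of 19 complement and phosphatidylserine clearance genes to pass (median -0.0030, and 0.073 without WGD- replicate 2).

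Retinoid genes moved both ways. Stra6, the cell surface receptor that takes up retinol from its plasma carrier (chromosome 9, 58063788 to 58153996, plus strand), was at 5.05, 6.23 and 6.58 in WGD+ tumours, against 3.79, 4.49 and 3.08 in WGD- tumours. The libraries were spread by more than 1 unit within each form, without overlap between forms. Stra6 rose by 2.17 (SE 0.45, adjusted p = 0.0116), but not without WGD- replicate 3 or WGD+ replicate 2 or 3 (adjusted p up to 0.0741), nor with only the 6 libraries in the fit (0.0784). Crabp2, which carries retinoic acid to its nuclear receptors (chromosome 3, 87948666 to 87953376, plus strand), was at 2.55, 1.39 and 2.33 in WGD+ tumours, against 5.23, 5.57 and 5.45 in WGD- tumours. Each WGD+ library was far below each WGD- library, and the fall was 3.33 (SE 0.39, adjusted p = 4.28e-05), kept in all 6 leave-out fits. Stra6 and Crabp2 were the only called genes of the 21 retinoid pathway genes tested, whose median was -0.15, and 0.02 without WGD- replicate 2.

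Lpar3 had the largest fall. It encodes a G protein-coupled receptor for lysophosphatidic acid, a lipid that drives growth and migration of many epithelial cells (chromosome 3, 146220963 to 146286186, plus strand). The level was 0.89, 0.86 and 0.74 in WGD+ tumours, against 4.58, 4.13 and 4.45 in WGD- tumours, which is 17 reads in 3 libraries against 422. The groups were far apart. The fall was 3.56 (SE 0.37, adjusted p = 7.09e-06) and passed in all 6 leave-out fits. None of the other genes among the 16 tested of the lysophosphatidic acid and sphingosine pathway passed (median 0.03).

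Cell cycle lists held few called genes. Ccnd2 encodes cyclin D2, an activator of CDK4 and CDK6 in G1 (chromosome 6, 127125162 to 127152193, minus strand), and was at 6.58, 6.89 and 7 in WGD+ tumours, against 4.94, 4.80 and 4.81 in WGD- tumours. It was the 1 called gene of 27 cyclins, kinases and inhibitors, and rose by 1.98 (SE 0.40, adjusted p = 0.0111), with the call lost without WGD- replicate 3 or WGD+ replicate 2 or 3 (adjusted p up to 0.0577). Pcna, the sliding clamp of DNA polymerases, was at 8.09, 8.11 and 8.20 in WGD+ tumours, against 8.86, 8.73 and 8.69 in WGD- tumours, and fell by 0.63 (SE 0.16, adjusted p = 0.0336). Pcna was the 1 called gene of 22 DNA replication genes (median 0.02), and its call was lost without any 1 of the 6 libraries (adjusted p 0.083 to 0.146). Members of this list differed both ways. At an unadjusted p under 0.05, 3 were higher and 5 lower, against 2303 of 13826 over all genes. Without overlap 6 were higher and 7 lower, against 17.6% and 18.6% of all genes. With only the 6 libraries in the fit 6 rose and 7 fell, against 1102 and 1360 of all 13826.

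None of 20 G2/M genes, 23 spindle checkpoint and kinetochore genes, 17 centrosome genes, 14 cytokinesis genes or 24 p53 targets passed limma's test or voom on the recovered reads. At an unadjusted p under 0.05 were 2, 4, 4, 2 and 3 of these lists, against 2303 of 13826 over all genes. Their medians were 0.0078, 0.0781, 0.0823, 0.0958 and 0.0612, and without WGD- replicate 2 they were -0.0908, 0.0617, 0.0031, 0.0025 and 0.073. The proliferation marker Mki67 was at 9.15, 9.15 and 9.21 in WGD+ tumours, against 8.88, 8.60 and 8.93 in WGD- tumours (difference 0.36, adjusted p = 0.255), without overlap. Birc5, which encodes survivin of the chromosomal passenger complex, was at 6.77, 6.98 and 6.77 in WGD+ tumours, against 6.75, 6.76 and 6.85 in WGD- tumours, with overlapping groups (adjusted p = 0.932).

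Keratins were called in both directions. Of 23 keratin and junction genes tested, 3 fell, 1 rose and 19 were below 0, with a median difference of -0.64. In 14 every WGD+ library lay below every WGD- library, against 18.6% of all genes. Krt17, a keratin of basal and regenerating epithelium (chromosome 11, 100256217 to 100261029, minus strand), was at 5.13, 4.4 and 5.25 in WGD+ tumours, against 7.23, 7.43 and 7.42 in WGD- tumours. It fell by 2.43 (SE 0.33, adjusted p = 0.000256) in this fit and in all 6 leave-out fits. Krt42, its neighbour and close relative, was at 4.50, 3.91 and 4.85 in WGD+ tumours, against 6.76, 6.57 and 6.97 in WGD- tumours. It fell by 2.35 (SE 0.53, adjusted p = 0.0222) and kept the call in 1 of 6 leave-out fits (without WGD+ replicate 3). Reads of these 2 genes may have been split between them by the counting, so the value of Krt42 is uncertain.

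Krt7, a keratin of ductal epithelium, was at 6.44, 6.44 and 6.83 in WGD+ tumours, against 7.47, 8.18 and 7.90 in WGD- tumours. It fell by 1.29 (SE 0.27, adjusted p = 0.0126), with the call lost without WGD- replicate 2 or 3 or WGD+ replicate 1 or 2 (adjusted p up to 0.072). Krt23, an acidic keratin of simple epithelia, went the other way, at 4.99, 4.55 and 3.6 in WGD+ tumours, against 2.64, 2.90 and 2.41 in WGD- tumours. It rose by 1.73 (SE 0.41, adjusted p = 0.0222) and lost the call without WGD- replicate 1 or 3 or WGD+ replicate 1 or 2 (up to 0.115). The luminal keratin Krt8 just missed the threshold, at 9.26, 9.17 and 8.96 in WGD+ tumours, against 9.97, 9.66 and 10.05 in WGD- tumours (difference -0.76, adjusted p = 0.0512). The basal keratins Krt14 and Krt5 differed by -1.03 (adjusted p = 0.0645) and -1.05 (0.354), while the adhesion genes Epcam (-0.22) and Cdh1 (-0.16) were close to 0. The count of this list depends on the spread used: 12 fell and 2 rose with only the 6 libraries in the fit, 10 fell and none rose with the 12 NSG libraries, and 1 to 4 in all were called in the leave-out fits. Over all 13826 genes 1360 fell and 1102 rose with the 6 libraries, and 740 fell and 486 rose with the 12. In the same host under YM-155, Krt17 differed by -0.775, Krt7 by -0.05, Krt8 by 0.27 and Krt5 by -0.0043, none of them called. In A/J vehicle tumours the same genes differed by -1.34, -1.19, -0.61 and 0.28, with Krt17 and Krt7 called.

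The summed CPM of mammary luminal markers was 927 to 1152 in WGD+ and 1431 to 1801 in WGD- tumours, and that of basal markers was 1473 to 1923 in WGD+ and 2194 to 3543 in WGD- tumours, without overlap in either. Areg was the 1 gene called of 14 luminal markers and Krt17 the 1 of 12 basal markers. The luminal list shares Krt8, Krt18, Krt19 and Epcam with the keratin list and the basal list shares Krt5, Krt14 and Krt17, so they are no separate evidence. Their part in the keratin counts was not tested.

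The next of the largest falls were Trim29, Ap1m2, Sp6 and Dynap. Trim29, a RING-less TRIM protein of squamous and basal epithelium, was at 1.95, 1.46 and 1.94 in WGD+ tumours, against 5.24, 3.23 and 4.91 in WGD- tumours. WGD- replicate 2 lay well under the other WGD- libraries, and the fall of 2.68 (SE 0.63, adjusted p = 0.0242) was called in only 1 of 6 leave-out fits (without WGD- replicate 2). Ap1m2, the epithelial chain of a clathrin adaptor that sorts proteins to the basolateral side, was at 2.71, 3.23 and 2.67 in WGD+ tumours, against 5.42, 5.50 and 6.01 in WGD- tumours, and fell by 2.77 (SE 0.47, adjusted p = 0.00284). Sp6, a zinc finger factor of tooth and skin epithelium (chromosome 11, 97013394 to 97024734, plus strand), was at 0.51, 1.23 and 0.96 in WGD+ tumours, against 3.88, 3.89 and 4.14 in WGD- tumours. It fell by 3.07 (SE 0.37, adjusted p = 4.13e-05). An antisense gene covers 86.7% of the exon bases of Sp6, and since the strand setting of the counting is not given in the sources used here, its reads cannot be assigned to Sp6 alone. The membrane protein gene Dynap, at 0.51, 1.06 and 1.66 in WGD+ tumours against 3.92, 3.83 and 3.72 in WGD- tumours, fell by 2.75 (SE 0.48, adjusted p = 0.0026). Ap1m2, Sp6 and Dynap passed in all 6 leave-out fits.

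Itga7 and Matn4 were also among the largest falls. Itga7, the alpha chain of a laminin receptor of muscle and some epithelia (chromosome 10, 128933818 to 128958282, plus strand), was at 4.78, 4.32 and 4.21 in WGD+ tumours, against 7.53, 7.47 and 7.70 in WGD- tumours, a wide gap. It fell by 3.13 (SE 0.41, adjusted p = 0.00026) and was the only one of 19 integrin genes to pass (median -0.17, and -0.09 without WGD- replicate 2). Matn4, a matrilin that links matrix fibres (chromosome 2, 164389393 to 164405160, minus strand), was at 3.67, 3.90 and 3.80 in WGD+ tumours, against 6.75, 6.86 and 7 in WGD- tumours, and fell by 3.08 (SE 0.40, adjusted p = 0.000178). Rbpjl, a relative of the Notch effector RBPJ, lies beside it on the other strand (164403141 to 164415448) and overlaps 149 exon bases, 2.88% of those of Matn4. Rbpjl was at 1.58, 1.99 and 2.03 in WGD+ tumours, against 4.29, 4.61 and 4.67 in WGD- tumours, and fell by 2.65 (SE 0.32, adjusted p = 4.13e-05). Both passed in all 6 leave-out fits.

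Col4a5, a chain of basement membrane collagen on chromosome X, was at 6.06, 5.94 and 4.88 in WGD+ tumours, against 4.29, 4.12 and 4.34 in WGD- tumours. It rose by 1.38 (SE 0.28, adjusted p = 0.00948), with the call lost without WGD+ replicate 1 or 2 (up to 0.0735), and was the 1 called gene of 17 laminin and basement membrane genes (median 0.13, and 0.28 without WGD- replicate 2). Of 20 collagen chain genes none passed limma or voom (3 at an unadjusted p under 0.05, all lower), and the median of -0.38 was -0.175 without WGD- replicate 2. Of 21 mesenchymal transition genes none passed either test (2 at an unadjusted p under 0.05), with a median of -0.23, or -0.10 without WGD- replicate 2. The summed CPM of fibroblast markers was 946 to 1279 in WGD+ and 1338 to 2500 in WGD- tumours. That list itself holds the collagen genes Col1a1, Col1a2, Col3a1 and Col6a3, so its gap is no separate evidence. The part of fibroblasts in the collagen values was not tested.

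**Figure D2:**
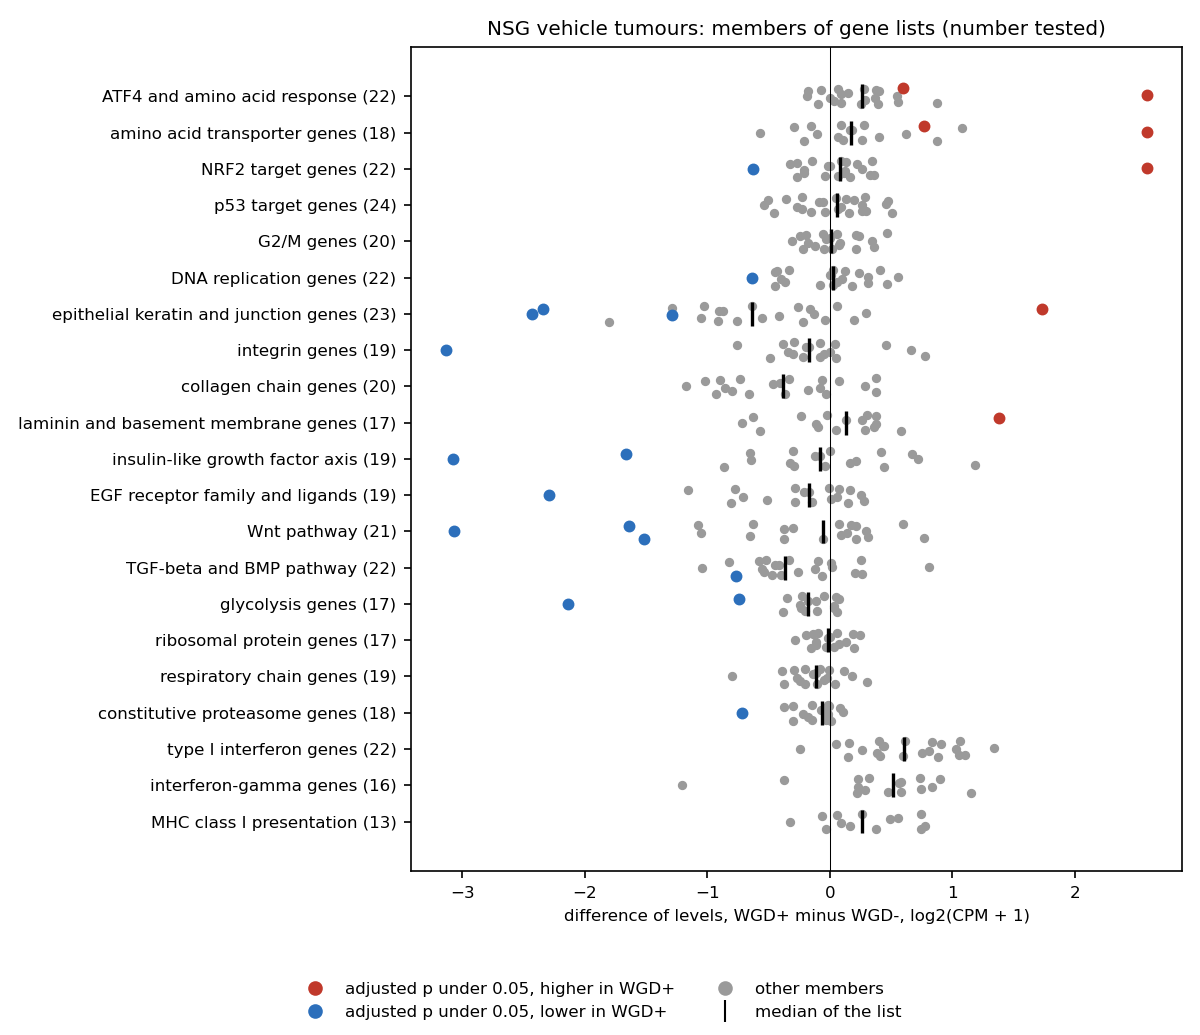
Difference of levels (WGD+ minus WGD-, log2(CPM + 1)) of every tested member of 21 gene lists in NSG vehicle tumours, with called genes in red (higher in WGD+) and blue (lower in WGD+), other members in grey and a black bar at the median. The keratin and junction list has the lowest median (-0.64) and the type I interferon list the highest (0.60), and no list is called throughout.

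Lists of growth factor and signalling pathways held few called genes, and those described next were lower in WGD+ tumours. Pappa, the protease that frees insulin-like growth factors by cutting their binding proteins (chromosome 4, 65124174 to 65357509, plus strand), was at 1.72, 1.53 and 1.88 in WGD+ tumours, against 4.85, 4.27 and 5.23 in WGD- tumours. It fell by 3.08 (SE 0.46, adjusted p = 0.000543), and its substrate Igfbp4 was at 7.20, 7.14 and 7.05 in WGD+ tumours, against 8.62, 8.54 and 9.23 in WGD- tumours, a fall of 1.67 (SE 0.34, adjusted p = 0.0107). Pappa passed in all 6 leave-out fits and Igfbp4 in all but that without WGD- replicate 3 (0.0651). They were the 2 called genes of 19 in the insulin-like growth factor axis (median -0.08). Areg, amphiregulin, the EGF receptor ligand of mammary duct growth (chromosome 5, 91139599 to 91148432, plus strand), was at 4.18, 3.86 and 4.17 in WGD+ tumours, against 5.98, 6.39 and 6.71 in WGD- tumours. The fall of 2.29 (SE 0.25, adjusted p = 1.58e-05) passed in all 6 leave-out fits, and no other of 19 EGF receptor family and ligand genes passed (median -0.17, and -0.25 without WGD- replicate 2).

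Of 21 Wnt pathway genes tested 3 fell and none rose (median -0.05, and -0.18 without WGD- replicate 2). Besides Sp6, whose reads cannot be assigned to it alone, these were Wnt7b and Notum. Wnt7b is an epithelial Wnt ligand, and Notum is an enzyme that inactivates Wnt ligands and is itself a Wnt target. Wnt7b was at 3.26, 3.35 and 3.64 in WGD+ tumours, against 4.66, 5.47 and 4.66 in WGD- tumours, and its fall (adjusted p = 0.00766) was lost without WGD- replicate 2 (0.0538). Notum was at 2.78, 2.71 and 3.30 in WGD+ tumours, against 4.86, 4.44 and 4.4 in WGD- tumours, and fell by 1.64 (SE 0.37, adjusted p = 0.0167), a call lost without WGD- replicate 1 or 3 or WGD+ replicate 1 or 2 (up to 0.0946). An antisense gene shares 29.4% of the exon bases of Notum. Tgfb1, a ligand of the TGF-beta family, was at 5.44, 5.30 and 5.47 in WGD+ tumours, against 5.98, 6.37 and 6.14 in WGD- tumours. It fell by 0.76 (SE 0.19, adjusted p = 0.0271), with the call lost without any 1 of the 6 libraries (0.0522 to 0.134). It was the only called gene of 22 TGF-beta and BMP genes, of which 16 were below 0 (median -0.37). Jag1, a Notch ligand, was at 5.71, 5.20 and 5.56 in WGD+ tumours, against 6.72, 6.48 and 6.52 in WGD- tumours, and missed the threshold (difference -1.08, adjusted p = 0.0516). None of the 15 Notch genes passed limma, 1 passed voom and 2 were at an unadjusted p under 0.05.

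Among metabolic genes, Slc16a3, the lactate exporter of glycolytic cells (chromosome 11, 120948480 to 120960868, plus strand), was at 5.02, 4.85 and 5.15 in WGD+ tumours, against 6.9, 7.33 and 7.20 in WGD- tumours. The groups were about 2 units apart, and the fall of 2.14 (SE 0.29, adjusted p = 0.000222) passed in all 6 leave-out fits. Pfkm, a chain of phosphofructokinase that is also abundant in muscle, was at 5.67, 5.43 and 5.67 in WGD+ tumours, against 6.33, 6.58 and 6.09 in WGD- tumours, and fell by 0.74 (SE 0.15, adjusted p = 0.00828), with the call lost without WGD- replicate 2 or WGD+ replicate 2 (up to 0.0661). Another gene model on the same strand shares 10.2% of the exon bases of Pfkm. Slc16a3 and Pfkm were the 2 called genes of 17 glycolysis genes (median -0.18, and -0.27 without WGD- replicate 2). Psma7, a subunit of the proteasome core on chromosome 2, was at 7.99, 7.87 and 8 in WGD+ tumours, against 8.65, 8.62 and 8.73 in WGD- tumours. It fell by 0.71 (SE 0.15, adjusted p = 0.0098) and was the 1 called gene of 18 proteasome genes (median -0.06), with the call lost without WGD- replicate 3 or WGD+ replicate 2 (up to 0.0637) and after GC correction (0.0542). Of the 18 genes, 15 were below 0 and 8 had every WGD+ library below every WGD- library, against 18.6% of all genes. At an unadjusted p under 0.05 were 4, all lower, against 2303 of 13826 over all genes. Map1lc3a, an autophagosome protein gene also on chromosome 2, was at 5.01, 4.25 and 4.41 in WGD+ tumours, against 5.92, 5.85 and 6.19 in WGD- tumours, and fell by 1.43 (SE 0.19, adjusted p = 9.09e-05) with every library left out in turn.

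No gene passed limma or voom in the lists for hypoxia (16 tested, median -0.0007), YAP and TAZ targets (15, -0.05), cholesterol synthesis (17, -0.07), the respiratory chain (19, -0.11), ribosomal proteins (17, -0.02), heat shock and the unfolded protein response (16, 0.16) and cytosolic DNA sensing (11, 0.03). At an unadjusted p under 0.05 these lists held 0, 3, 3, 4, 0, 2 and 2 genes in the same order, against 2303 of 13826 over all genes. Without WGD- replicate 2 the medians of the lists were -0.18, -0.03, -0.14, -0.12, -0.03, 0.11 and 0.11. Rpl8, a ribosomal protein gene, was at 10.91, 10.75 and 10.63 in WGD+ tumours, against 11.03, 11.05 and 11.06 in WGD- tumours (difference -0.29, adjusted p = 0.471).

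No interferon gene was called. Of 22 type I interferon genes tested 21 differences were above 0, with a median of 0.60. In 11 every WGD+ library lay above every WGD- library, against 17.6% of all genes. None passed limma or voom, and 2 were at an unadjusted p under 0.05, against 2303 of 13826 over all genes. The summed CPM of the 22 genes was 435, 429 and 286 in WGD+ tumours, against 271, 276 and 282 in WGD- tumours, so WGD+ replicate 3 lay close to the WGD- libraries. Ddx58, the RIG-I sensor, was at 5.11, 5.11 and 4.69 in WGD+ tumours, against 4.21, 4 and 4.19 in WGD- tumours (difference 0.84, adjusted p = 0.215). Mx1, an antiviral GTPase, was at 1.84, 2.74 and 1.53 in WGD+ tumours, against 1.03, 1.39 and 0.52 in WGD- tumours (1.06, 0.256). With only the 6 libraries in the fit 10 of the 22 passed, and with the 12 NSG libraries 6 passed, all higher. Over all 13826 genes 1102 and 486 were higher in these 2 fits. Interferon-gamma genes had a median of 0.52 (16 tested) and MHC class I presentation genes one of 0.26 (13 tested), with 0 passing limma or voom and 0 at an unadjusted p under 0.05 in both lists. H2-D1, a classical class I heavy chain, was at 6.19, 6.00 and 5.61 in WGD+ tumours, against 4.94, 5.29 and 5.33 in WGD- tumours (0.75, 0.567). Of 26 chemokine and cytokine genes 0 passed limma or voom and 3 were at an unadjusted p under 0.05 (median 0.05, and 0.19 without WGD- replicate 2).

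Markers of host cells were read against the label of the host. Cd3e, Cd3d, Cd3g and Cd8b1 of T cells, Ms4a1 of B cells and Ncr1, Klrd1, Prf1, Gzmb and Nkg7 of NK cells had 0 reads in all 6 libraries, and Cd8a had 0 reads in WGD+ and 1 in WGD- tumours. The summed CPM of the T cell list, 52 to 69 in WGD+ and 50 to 99 in WGD- tumours, came mostly from Thy1 and Lck, which other cells express. Il2rg itself was at 1.72, 2.52 and 2.41 in WGD+ tumours, against 1.94, 1.53 and 1.28 in WGD- tumours (adjusted p = 0.342), and a level cannot check the mutation of the host in tumours whose cells carry the gene.

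Myeloid lists were present in both forms. Macrophage markers summed to 486 to 615 CPM in WGD+ and 407 to 644 in WGD- tumours, and neutrophil markers to 112 to 276 in WGD+ and 139 to 184 in WGD- tumours, with overlap in both. Dendritic cell markers summed to 50.1 to 115 CPM in WGD+ and 40 to 47.7 in WGD- tumours, and mast cell markers to 20.7 to 27.0 in WGD+ and 11 to 17.6 in WGD- tumours, without overlap. All 7 mast cell markers tested differed upwards (median 0.69) and 0 passed limma or voom (2 at an unadjusted p under 0.05), with 45 reads of the chymase gene Cma1 in the WGD+ and 7 in the WGD- libraries. Sums overlapped for endothelial (215 to 251 in WGD+, 186 to 246 in WGD-), pericyte (126 to 175 in WGD+, 139 to 715 in WGD-) and nerve markers (311 to 409 in WGD+, 322 to 366 in WGD-). The liver list, which is mostly transferrin (Trf), summed to 699 to 994 CPM in WGD+ and 641 to 694 in WGD- tumours. NK cell markers summed to 23.5 to 28.8 CPM in WGD+ and 21.4 to 24.9 in WGD- tumours, mostly from Klrb1c. Red blood cell markers summed to 1.21 to 2.14 in WGD+ and 1.35 to 3.30 in WGD- tumours, and B cell markers to 0.285 to 0.945 in WGD+ and 0.746 to 0.943 in WGD- tumours.

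Muscle, fat and nerve markers were read because the tumours grew in a mammary fat pad. All 13 skeletal muscle markers were below 0 (median -1.30), and 0 passed limma or voom. At an unadjusted p under 0.05 were 11 of them, against 2303 of 13826 over all genes. The list summed to 457 to 656 CPM in WGD+ and 600 to 4802 in WGD- tumours. Acta1, the actin of skeletal muscle, was at 5.74, 5.51 and 6.36 in WGD+ tumours, against 6.87, 10.34 and 6.17 in WGD- tumours, so WGD- replicate 2 stood far above the rest and the median of the list without it was -0.64. Of 10 adipocyte markers 2 rose, the lipase gene Lpl, at 5.38, 5.70 and 5.21 in WGD+ tumours against 4.79, 4.03 and 4.33 in WGD- tumours (adjusted p = 0.0238), and the lipid droplet gene Plin4, at 5.63, 4.95 and 5.13 in WGD+ tumours against 4.12, 4.66 and 3.98 in WGD- tumours (adjusted p = 0.048). The adipocyte sums were 103 to 313 CPM in WGD+ and 90.8 to 169 in WGD- tumours, Lpl lost its call without 4 of the 6 libraries (WGD- replicate 2 or 3, WGD+ replicate 1 or 2) and Plin4 without 5 (all but WGD- replicate 2). Sox10, which marks Schwann cells and also some mammary cells, was at 8.31, 8.16 and 7.86 in WGD+ tumours, against 8.27, 8.02 and 8 in WGD- tumours, with overlapping groups.

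**Figure D3:**
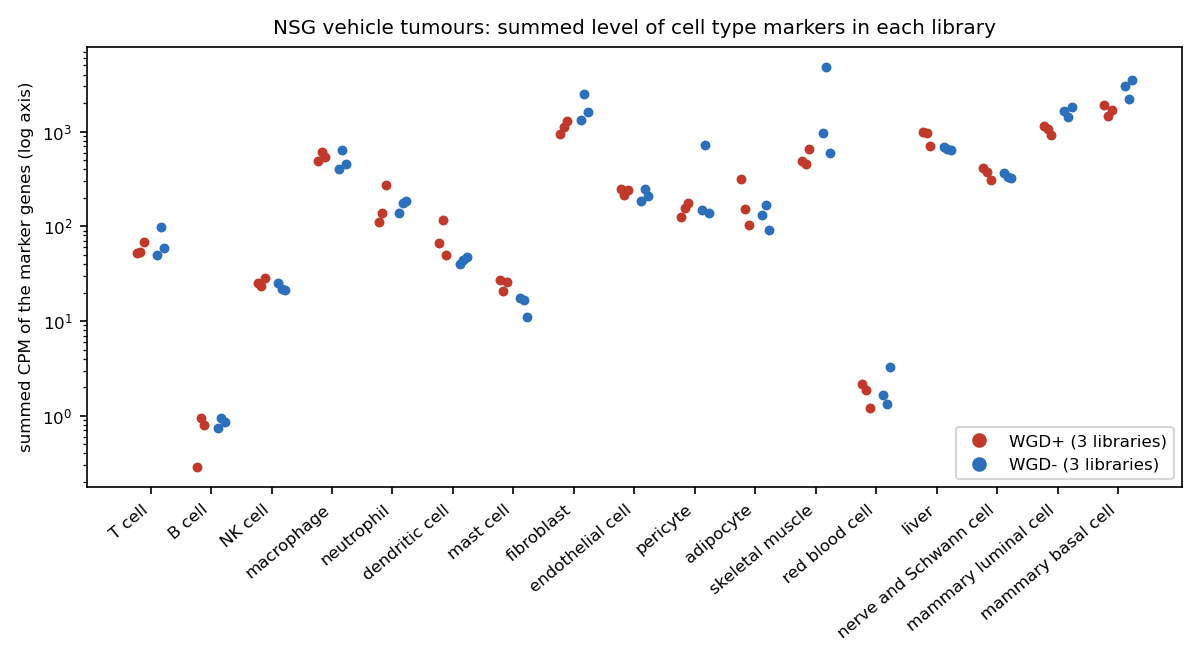
Summed CPM (log axis) of the marker genes of 17 cell types in each of the 3 WGD+ (left, red) and 3 WGD- (right, blue) NSG vehicle libraries. B cell sums stay under 1 CPM, and WGD- replicate 2 has the highest skeletal muscle, pericyte and fibroblast sums.

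Nuclear RNAs and the X chromosome gave the next set of higher genes. Xist, the RNA that coats the inactive X chromosome (chromosome X, 103460366 to 103483254, minus strand), was at 9.13, 9.29 and 9.43 in WGD+ tumours, against 7.71, 7.77 and 7.55 in WGD- tumours. The libraries of each form lay close together, and the rise was 1.6 (SE 0.32, adjusted p = 0.0105), lost without WGD- replicate 3 (0.0528). It also missed the threshold with the replicate number as a block (limma adjusted p = 0.0636). In NSG YM-155 tumours Xist differed by -0.14 (adjusted p = 0.88), and the difference between the effects was 1.74 (SE 0.46, adjusted p = 0.249). A/J vehicle and A/J YM-155 tumours gave 0.89 and 1.04, neither called. The antisense gene Tsix shares 11% of the exon bases of Xist. Reads of tumour cells and of host cells cannot be told apart here. X-linked called genes with small p included the heparan sulphate carrier Gpc4, at 7, 7.13 and 7.23 in WGD+ tumours against 6.24, 6.08 and 6.32 in WGD- tumours (rise 0.91, adjusted p = 0.00362), and Tex13b (rise 1.07, adjusted p = 0.00362). Both passed in every leave-out fit.

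Neat1, the scaffold RNA of paraspeckles, was at 10.16, 10.76 and 10.32 in WGD+ tumours, against 8.17, 8.5 and 9.47 in WGD- tumours. It rose by 1.70 (SE 0.42, adjusted p = 0.0336), but the call was kept only without WGD- replicate 3, and not with only the 6 libraries (0.0622) or after GC correction (0.0504). Other genes among the largest rises were Tnik, a kinase of Wnt target activation, Dqx1, a helicase-like gene, and Zfp101, a zinc finger gene. Tnik was at 3.79, 4.35 and 3.87 in WGD+ tumours, against 2.60, 2.61 and 2.78 in WGD- tumours (rise 1.34, adjusted p = 0.0303, lost without any 1 of the 6 libraries). Dqx1 was at 3.70, 3.92 and 4.08 in WGD+ tumours, against 2.41, 2.48 and 2.87 in WGD- tumours (rise 1.31, adjusted p = 0.00391, kept in all 6 leave-out fits). Zfp101 was at 3.53, 3.95 and 3.44 in WGD+ tumours, against 2.37, 2.68 and 2 in WGD- tumours (rise 1.29, adjusted p = 0.0139, lost without WGD- replicate 1 or 3 or WGD+ replicate 2).

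Called genes were spread unevenly over the chromosomes. Chromosomes 2, 5 and 14 held 17.3% of the genes tested and 110 of the 270 lower genes (40.7%), with only 3 of the 124 higher genes. Their median differences were -0.16 (chromosome 2, 1055 genes), -0.13 (chromosome 5, 858 genes) and -0.15 (chromosome 14, 472 genes), while the other 17 chromosomes lay between -0.05 and 0.12, with X highest (0.12). Of the genes of chromosomes 2, 5 and 14, 69.8%, 65.9% and 67.8% had a difference below 0. Their centred median level was lower in every WGD+ than in every WGD- library. Such gaps were common: medians were lower without overlap also on chromosomes 7, 8 and 15. The forms overlapped only on chromosomes 11, 17 and 19. On chromosome 2 the shift lay in its distal part: the 393 genes before 80 Mb had a median of -0.02, with 6 lower and 2 higher genes called, and the 662 genes beyond had a median of -0.26, with 59 lower and none higher. Pcna, Psma7, Map1lc3a, Matn4 and Rbpjl lie in that part. Leaving out 1 library kept the medians between -0.17 and -0.16 (chromosome 2), -0.13 and -0.12 (chromosome 5) and -0.18 and -0.14 (chromosome 14). The split at 80 Mb was set after the values were seen.

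GC content moved with the difference in these libraries, so the chromosomes were also read within GC classes. Across 13730 genes, which are not independent replicates, Spearman's rho of difference and GC content was -0.37, against -0.21 to 0.25 in the other 8 comparisons of the series. Split into 3 classes of about equal size, genes of the lowest GC class held 70 higher and 28 lower genes, the middle class 32 and 73, and the highest 21 and 169. Chromosome 2 had a median of -0.08, -0.17 and -0.26 in these classes in that order, against 0.15, 0.01 and -0.15 for all genes. Chromosome 5 had 0.00, -0.13 and -0.27, and chromosome 14 had -0.03, -0.16 and -0.41. After GC correction the medians of the 3 chromosomes lay between -0.19 and -0.12, and the distal part of chromosome 2 was at -0.26. X was then at 0.07 and no longer the highest, since chromosome 17 was at 0.0691. The part of GC content in single calls was not tested beyond that correction.

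**Figure D4:**
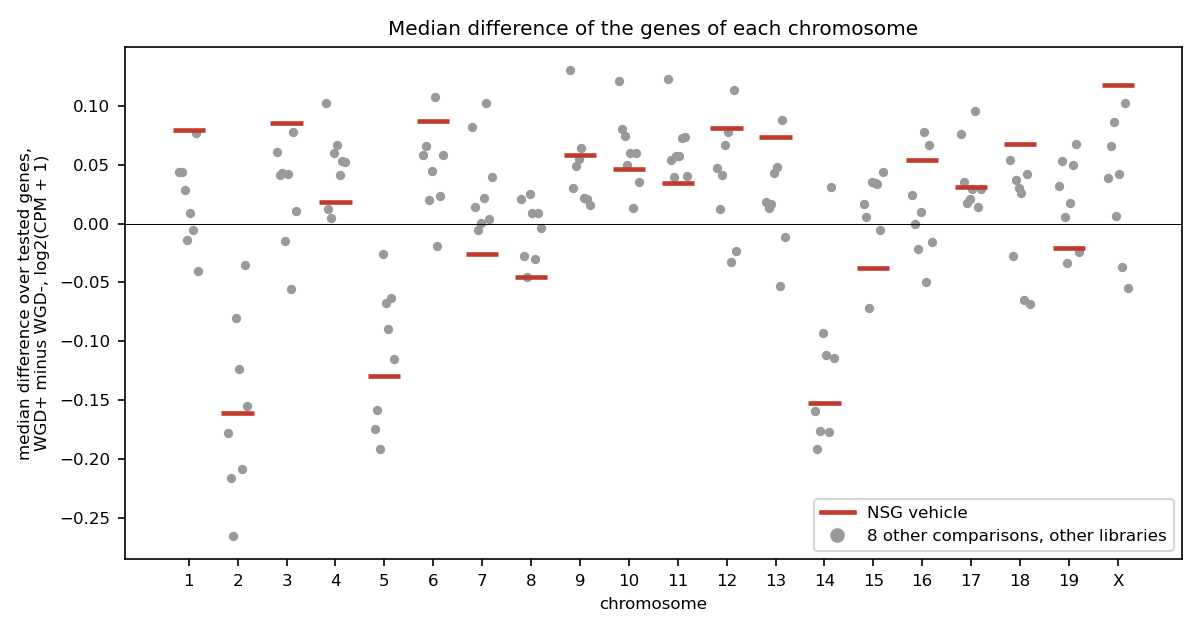
Median difference of levels (WGD+ minus WGD-, log2(CPM + 1)) over the tested genes of each chromosome in NSG vehicle tumours (red bars) and in 8 comparisons of the forms in other libraries (grey points). Chromosomes 2 and 5 are below 0 in all 9 comparisons and chromosome 14 in 8.

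The other comparisons of the forms in the series share no library with these 6, so the values of the 394 genes there can be set beside them. Those within the YM-155 experiment take their spread from the same fit, so their counts of genes also called are not independent of the calls here. In NSG mice given YM-155, a survivin suppressant, 326 of the 394 had the same sign (82.7%, against 57.0% of all genes) and 71 were also called (1.58% of all genes were called there). The same sign was found for 367 of the 394 in A/J vehicle tumours (93.1%, against 61.6% of all genes) and 159 were also called in that direction (11.1% called there), 1 in the other. A/J WGD- vehicle replicates 1 and 2 stand apart, and without them 359 had the same sign and 44 were also called (0.687% called there). In A/J YM-155 tumours 389 had the same sign (98.7%, against 67.6% of all genes) and 119 were also called (1.69% called there).

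The antibody experiment gave 352 of 391 genes with the same sign in A/J isotype tumours (28 also called, 1.1% called there). Under anti-PD-L1 329 had it (30 also called and 1, Traf1, called the other way, 0.701% called there), and under anti-CD8 296 (26 also called, 1.57% called there). Over all genes the share with the same sign was 61.2%, 59.1% and 52.1% in these 3 sets, and 54.1% at day 14. At day 14 of the time course 303 of 390 had the same sign and 6 were also called (0.445% called there). At day 8 the number was 208 of 390 (53.3%, against 53.6% of all genes), with 17 called the same way and 6 the other way (3.39% called there). The mean level of the 124 higher genes less that of the 270 lower ones, centred within each table, was higher in every WGD+ than in every WGD- library in these other comparisons except at day 8. There the library labelled WGD+ replicate 3 was at -0.41, apart from 0.08 and 0.45 in WGD+ replicates 1 and 2, and the library labelled WGD- replicate 3 was at 0.37, apart from -0.22 and -0.33 in WGD- replicates 1 and 2. Directions at day 8 are therefore read only with that in view.

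Of the 390 genes measured in all 8 other comparisons, 195 (50.0%) had the sign of the NSG vehicle difference in the 7 besides day 8, against 12.1% of all genes, and 122 (31.3%) in all 8, against 7% of all genes. These were mostly lower genes: 150 of 268 lower genes and 45 of 122 higher genes over the 7. In 1 or more of the 8 comparisons 228 genes were also called, in 4 or more 30, and in 6 or more 6, which were Itga7, Lpar3, the proline oxidase gene Prodh, the epithelial protease inhibitor gene Spint1 and the unnamed genes 2610528A11Rik and A530065N20Rik.

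Lpar3 differed by -2.37 in A/J vehicle, -2.98 in NSG YM-155 and -3.37 in A/J YM-155 tumours, by -2.43, -2.66 and -2.82 under isotype, anti-PD-L1 and anti-CD8, and by -2.46 and -2.86 at day 8 and day 14. Itga7 differed by -1.49, -2.97 and -2.79, by -2.32, -2.12 and -2.15, and by -1.79 and -2.55 in the same order. Both were thus lower in WGD+ in all 9 sets. Slc7a11 differed by 2.95, 2.23 and 1.72, by 1.64, 2.60 and 2.54, and by 0.40 and 1.5. Mfge8 differed by 2.19, 2.33 and 1.71, by 1.55, 1.90 and 1.77, and by -0.64 and 1.90, with day 8 alone on the other side. Krt42 changed sign among the comparisons, at -0.07, -0.46 and -0.65, then -1.09, 0.75 and 0.87, then 1.53 and -0.42.

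**Figure D5:**
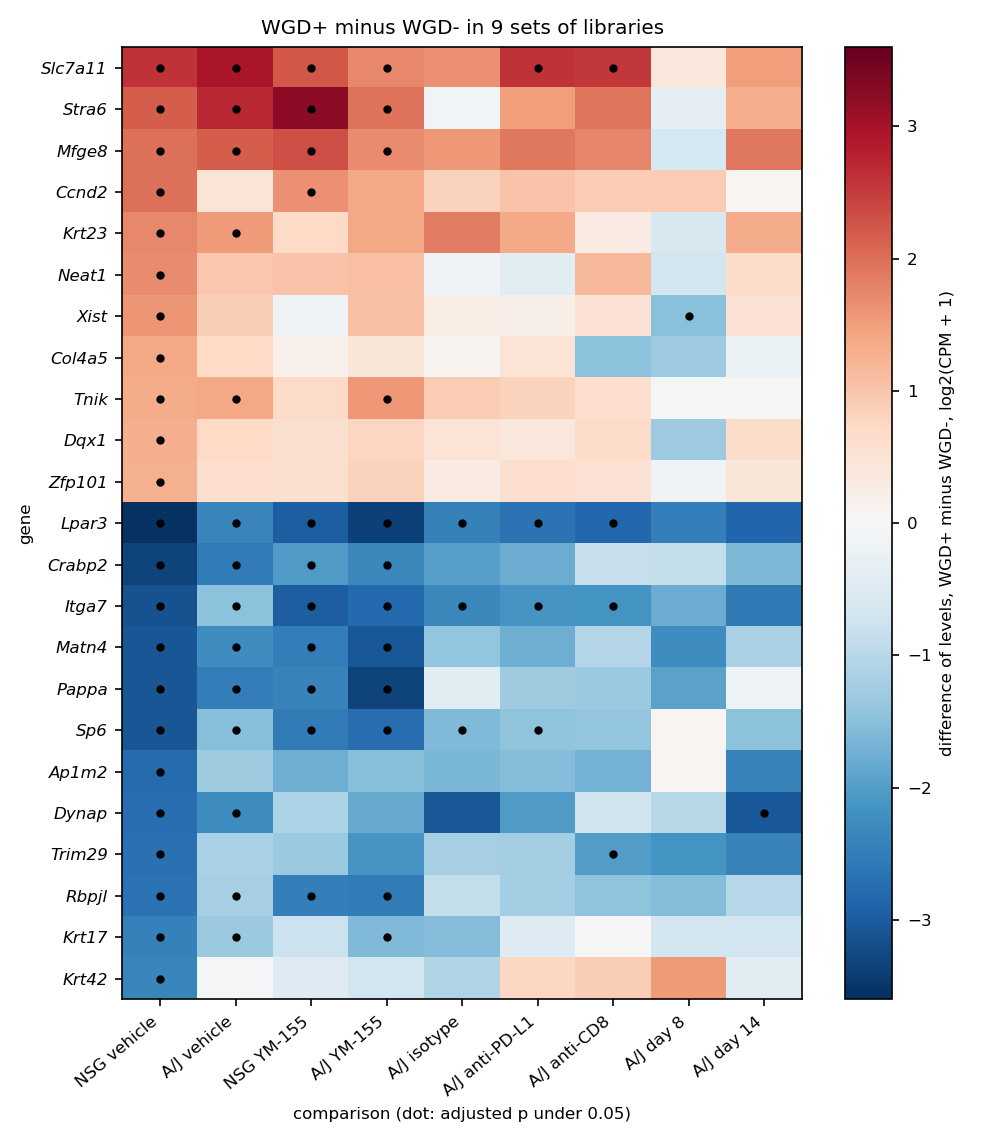
Difference of levels (WGD+ minus WGD-, log2(CPM + 1), colour) of 23 genes among those with the largest called differences in NSG vehicle tumours, in that comparison (left column) and in 8 others, with a dot where the adjusted p was under 0.05. Lpar3 and Itga7 are blue in every column, and at day 8 fewer of the 11 higher genes are above 0 than in any other column.

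Whether the WGD difference itself depended on the host or the compound was tested with interaction terms. No gene passed limma for NSG vehicle minus A/J vehicle or for NSG vehicle minus NSG YM-155, and no gene passed voom, with 1787 and 1400 genes at an unadjusted p under 0.05. The first count was also 0 without A/J WGD- vehicle replicates 1 and 2, and it was 135 without A/J WGD- vehicle replicate 3, which leaves the libraries that stand apart as that group. For Slc7a11 the difference between the effects was -0.36 (SE 0.38) against A/J vehicle and 0.36 (SE 0.38) against NSG YM-155. For Lpar3 it was -1.19 (SE 0.53) and -0.58 (SE 0.53), and for Itga7 -1.64 (SE 0.59) and -0.17 (SE 0.59). A p that misses the threshold with 3 libraries a group does not show that the effects were equal. None of the differences described above can thus be called particular to the NSG host or to vehicle.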

How the data were processed

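Tumour RNA was sequenced by the authors from TruSeq stranded mRNA libraries made of 500 ng RNA, per the labels' protocols. Per the submitters' processing notes, STAR 2.5.1b, mm10 and edgeR were used; no source used here names the counting tool, its strand setting or the annotation. The deposited values are log2(CPM + 1) after the authors' TMM scaling within each table, and they gave whole reads for 100% of values within 0.1 of a read. Assigned reads ran from 3.23 to 7.75 M over the 24 libraries of the YM-155 table. Of 24360 symbols there, 27 turned into dates by a spreadsheet were left out. Symbols were matched to GENCODE M21 (96.3%), and coordinates are its mm10 ones; promoter sequences are RefSeq's, GRCm38.p6.

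Groups were taken from titles. limma 3.58.1 (R 4.3.3, trend, robust empirical Bayes) was fitted to all 24 libraries with 1 mean for each of 8 groups (16 residual degrees of freedom) over genes above 1 CPM in at least 3 libraries, and p-values were adjusted by Benjamini-Hochberg over all of them. The antibody and time course tables were fitted each on its own. Host and compound dependence were fitted as interactions. The fit was tested on simulated data in which each gene had the same spread in all groups. That test does not cover groups of unequal spread.

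Members and the 53 gene lists were chosen with earlier results of these data known. Named genes are the 12 largest called differences each way without overlap and with a mean of at least 3 in the higher group, leaving out predicted gene models, then up to 4 called genes per list (otherwise the 2 with the smallest p), and the 3 called genes with the smallest p on the chromosomes with the lowest and highest median. Some items that this rule picks are not reported here. Others named were chosen after their values were seen. Alternatives were no filter, another pseudocount, quantile normalization, fewer libraries in the fit, a replicate block, voom on recovered reads and leaving out each library, and, added after seeing the data, GC correction and leaving out the A/J libraries that stand apart.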

Additional observations from a re-analysis of the deposited data

Results flagged for a closer look

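In 5 cases a gene named by the rule and called in NSG vehicle tumours had all WGD+ libraries on the opposite side of all WGD- libraries in another set. In none of them was this difference between the settings tested. Col4a5 rose by 1.38 in NSG vehicle tumours and differed by -1.49 under anti-CD8 in A/J mice, at 2.49 to 4.64 in WGD+ and 5.01 to 5.21 in WGD- tumours. Tgfb1 fell by 0.76 in NSG vehicle tumours and differed by 0.75 under anti-CD8, at 5.77 to 6.74 in WGD+ and 5.28 to 5.77 in WGD- tumours, a gap smaller than the digits given. That A/J WGD- group has 2 libraries. Neat1 rose by 1.70 in NSG vehicle tumours and differed by -0.38 under anti-PD-L1, at 8.80 to 8.96 in WGD+ and 9.16 to 9.40 in WGD- tumours. Xist rose by 1.6 in NSG vehicle tumours and was called in the other direction at day 8 in A/J mice (difference -1.51, limma adjusted p = 0.0296), at 6.62 to 7.67 in WGD+ and 8.17 to 9.16 in WGD- tumours. Dqx1 rose by 1.31 in NSG vehicle tumours and differed by -1.31 at day 8, at 1.31 to 2.55 in WGD+ and 2.83 to 3.30 in WGD- tumours. At day 8 the libraries labelled replicate 3 of either form sat with the other form on the 394 genes, and without them Xist differed by -1.23 and Dqx1 by -0.97.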

How the results depend on the processing

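The count of 394 genes was 314 with no filter, 404 with another pseudocount, 451 with quantile normalization, 462 with voom and 278 with GC correction. It was 2462 with only the 6 libraries, 1226 with only the 12 NSG libraries and 650 without the 2 A/J libraries that stand apart, an alternative added after seeing the data. It was 107 to 194 in the fits that leave out 1 library, which use fewer samples. No pairing of the libraries by replicate number was seen, though 3 pairs are too few to exclude it. Correlations of same-numbered deviations ran from -0.071 to 0.125, 1 of 3 pairs was over 0.1 and the best match of a library had its own number in 2 of 6 cases. With the replicate number as a block 210 genes passed, 196 of them shared, and 34 of the 43 named calls were kept. The interaction with the host gave 2 genes with only the libraries compared, 1 with the replicate block, and 0 to 135 with 1 library left out. The interaction with YM-155 gave 29 genes with only the libraries compared, 29 with only the NSG libraries, and 0 to 2 with 1 library left out (2 without NSG WGD+ YM-155 replicate 1). The cause of these shifts was not tested. No named gene reversed under any alternative run. Of the 43 named calls 19 were kept in all 6 leave-out fits, 38 after GC correction (Lpl, Neat1, Psma7 and Tnik were among those lost) and 41 with only the 6 libraries (lost: Neat1 and Stra6). Genes near 1 CPM rest on few reads at this depth and are imprecise.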

Other observations

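Some called genes known from stratified and squamous epithelium were not in any list. They were picked after their values were seen and because they fell, so their shared direction is set by the choice and adds nothing to the keratin result. Tgm1, the transglutaminase that cross-links the envelope of squamous cells, was at 1.36, 2.37 and 2.29 in WGD+ tumours, against 3.92, 3.79 and 4.36 in WGD- tumours, and fell by 2.01 (SE 0.31, limma adjusted p = 0.000548). Krtdap, a secreted product of differentiating keratinocytes, was at 1.58, 1.53 and 1.99 in WGD+ tumours, against 3.94, 3.47 and 4.48 in WGD- tumours, and fell by 2.26 (adjusted p = 0.0227). Serpinb5, maspin, a serpin of myoepithelium and epidermis, was at 3.92, 3.69 and 3.62 in WGD+ tumours, against 5.54, 4.72 and 5.43 in WGD- tumours, and fell by 1.49 (adjusted p = 0.00456). Fgfr3, a fibroblast growth factor receptor of epidermis and urothelium, was at 0.78, 0.86 and 0.62 in WGD+ tumours, against 3.03, 2.51 and 2.62 in WGD- tumours, and fell by 1.97 (adjusted p = 0.00177). Sfn (14-3-3 sigma) and Lgals7 (galectin-7) fell by 1.31 and 1.18 (adjusted p = 0.0313 and 0.0318), and neither call was kept after GC correction (0.0618 and 0.0899). The syndecan gene Sdc1 fell by 1.10 (adjusted p = 0.0142) and the factor gene Klf5 by 0.88 (adjusted p = 0.036).

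Other abundant noncoding RNAs were set beside Neat1 and Xist after their values were seen. Malat1 was at 8.59, 8.95 and 8.92 in WGD+ tumours, against 7.94, 7.54 and 8.68 in WGD- tumours, with WGD- replicate 3 close to the WGD+ libraries and no call (adjusted p = 0.623). Gas5, the host of many small nucleolar RNAs, was at 6.77, 7.01 and 6.80 in WGD+ tumours, against 5.26, 6.18 and 6.15 in WGD- tumours, and rose by 0.99 (SE 0.22, adjusted p = 0.0162), a call not kept after GC correction (0.0555).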
